A study of Mus musculus with 18 samples.

Results

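The 10 histone acetyltransferase genes Kat2a, Kat2b, Kat5, Kat6a, Kat6b, Kat7, Kat8, Crebbp, Ep300 and Ncoa1 were followed in mouse embryonic stem cells (ESCs) and in epiblast-like cells (EpiLCs) cultured with Δ9-tetrahydrocannabinol (Δ9-THC) or its vehicle. They were chosen by name as acetyltransferases, and all 10 were found among the 13104 genes of the ESC table and the 13717 genes of the EpiLC table. No member was lost to a filter on low counts, and 12410 genes were in both tables. The RNA-seq data held 3 libraries of each of 4 groups. These were ESCs with the vehicle, ESCs with 100 nM Δ9-THC, EpiLCs with the vehicle and EpiLCs with 100 nM Δ9-THC. By the study's methods the exposure was continuous, so the exposed EpiLCs were derived from exposed ESCs and were exposed again as EpiLCs. The vehicle was ethanol, which all groups received in the same amount. All cells carried the reporters Blimp1::mVenus and Stella::ECFP, which mark germline genes. ESCs were kept in medium with LIF and inhibitors of GSK3 and MEK, and EpiLCs were derived from them with activin A and basic fibroblast growth factor. The study's methods name a female and a male clone of these cells, and the labels name no clone for a library. The study states that its ESC proliferation data came from female cells, and it shows male cells in separate figures.

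Acetyltransferases move the acetyl group of acetyl-CoA onto lysines of histone tails, which loosens the contact of histones with DNA and makes binding sites for bromodomain and YEATS proteins. They fall into families by the fold of the catalytic domain. Kat2a (GCN5) and Kat2b (PCAF) are the GNAT enzymes of the SAGA and ATAC coactivator complexes. Kat5 (TIP60), Kat6a (MOZ), Kat6b (MORF), Kat7 (HBO1) and Kat8 (MOF) share the MYST domain and each work with scaffold subunits that direct them to chromatin. Crebbp (CBP) and Ep300 (p300) are large coactivators best known for acetylation at enhancers, and Ncoa1 (SRC1) is a nuclear receptor coactivator that recruits them. In pluripotent cells, p300 occupancy marks active enhancers, Kat8 is known for its part in the ESC core transcription network, and Kat5 with Ep400 for ESC identity.

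A promoter window is shown for each of 4 members, because these genes stood at the ends of the comparisons described here. Kat6b, Ncoa1 and Kat2b had the lowest levels in EpiLCs relative to ESCs. Kat8 was lower with Δ9-THC in both cell types, without passing the test in either. Each window runs from 250 bases before to 50 after a RefSeq transcript start of GRCm38.p6, 5′ to 3′ on the gene's strand. Kat6b, Kat2b and Kat8 each had another RefSeq window that is not shown. The Kat6b window lies inside the gene, whose annotated start is at base 21481434. Capitals mark matches, on either strand, to the GC box GGGCGG, the cAMP response element core TGACG, the ETS site CCGGAAG and the E-box CACGTG.
Kat6b, chr14:21499520-21499819, plus strand: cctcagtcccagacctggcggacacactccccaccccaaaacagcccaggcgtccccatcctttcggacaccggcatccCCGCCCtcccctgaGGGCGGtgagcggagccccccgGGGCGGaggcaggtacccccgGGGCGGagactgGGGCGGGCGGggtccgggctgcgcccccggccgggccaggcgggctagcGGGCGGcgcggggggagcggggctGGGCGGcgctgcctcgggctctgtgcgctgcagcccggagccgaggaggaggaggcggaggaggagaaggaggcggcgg
Ncoa1, chr12:4477133-4477432, minus strand: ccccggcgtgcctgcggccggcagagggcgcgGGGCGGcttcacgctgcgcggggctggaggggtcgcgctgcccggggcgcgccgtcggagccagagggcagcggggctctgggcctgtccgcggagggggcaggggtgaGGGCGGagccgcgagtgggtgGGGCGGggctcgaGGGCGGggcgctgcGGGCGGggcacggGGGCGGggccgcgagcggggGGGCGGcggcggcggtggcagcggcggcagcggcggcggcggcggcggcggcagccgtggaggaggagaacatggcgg
Kat2b, chr17:53566721-53567020, plus strand: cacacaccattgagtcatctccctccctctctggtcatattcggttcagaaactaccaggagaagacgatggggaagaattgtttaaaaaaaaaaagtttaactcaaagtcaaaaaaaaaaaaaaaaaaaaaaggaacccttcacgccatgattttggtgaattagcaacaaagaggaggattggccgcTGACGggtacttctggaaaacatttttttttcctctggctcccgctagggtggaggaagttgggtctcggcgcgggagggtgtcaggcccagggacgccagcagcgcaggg
Kat8, chr7:127912267-127912566, plus strand: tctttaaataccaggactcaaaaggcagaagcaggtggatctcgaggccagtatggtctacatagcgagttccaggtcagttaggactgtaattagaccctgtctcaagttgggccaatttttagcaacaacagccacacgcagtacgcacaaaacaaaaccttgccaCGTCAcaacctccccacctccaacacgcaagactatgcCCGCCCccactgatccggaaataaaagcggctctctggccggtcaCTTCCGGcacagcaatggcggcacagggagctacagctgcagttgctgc

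The Kat6b window held 8 GC boxes, of which a pair overlap each other, and 78.3% of its bases were G or C. At least 8 GC boxes stood in 0.262% of the 32851 RefSeq windows of this length. The Ncoa1 window held 7 GC boxes, a number reached by 0.627% of windows, and was 84.7% G or C with 49 CpG dinucleotides, where the median window had 52.7% and 7. The Kat2b window held no GC box and 1 TGACG match, and its G or C share of 47% was below the median. The high GC box counts of Kat6b and Ncoa1 were not shared by Kat2b, and a link of these letters to the levels was not tested. The Kat8 window held 1 GC box, 1 TGACG match and 1 ETS match. A GC box stood in 35.7% of all windows, TGACG in 20.8%, the ETS site in 8.86% and the E-box in 7.15%. RefSeq windows were matched for 9 of the 10 genes, all but Kat6a, with 13 windows in all. By gene, 6 of these 9 had a GC box, 5 a TGACG match, 3 an ETS match (Kat5, Kat7 and Kat8) and 1 an E-box (Kat5). These matches describe the letters of the windows only.

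Total counts per library lay between 23427551 and 32096698, so the members were counted deeply, from 309 counts for Ncoa1 in a vehicle EpiLC library to 13808 for Kat6b in a vehicle ESC library. The cell type labels were checked against marker genes. The 8 naive markers summed to 4347 to 4650 CPM (counts scaled to the library size with TMM) in vehicle ESCs and to 309 to 338 in vehicle EpiLCs, while the formative markers summed to 159 to 172 and 1741 to 2072 CPM. Of the 6 primitive endoderm markers, Gata4 alone was in the tables, at most at 3.39 CPM in vehicle ESCs, and of the 4 trophoblast markers Cdx2 and Elf5 were in neither table. The other two, the keratin genes Krt7 and Krt8, summed to 9.08 to 10.41 CPM in vehicle ESCs and 31.3 to 36.7 in vehicle EpiLCs. The mesendoderm markers summed to 14.4 to 19.8 CPM in vehicle ESCs (Eomes, Gsc and T). In vehicle EpiLCs they summed to 5.12 to 6.59 CPM (Eomes and Mixl1). Eomes, found in both tables, had means of 10.2 and 4.15 CPM. The vehicle and the exposed library with the same number were not independent. Over all genes, their deviations from their group means correlated at -0.987 to -0.976 in the 6 such pairs, so that where a gene was high in a vehicle library it tended to be low in the exposed library of that number. The edgeR test, the counts of separate libraries and the permutation tests treat the libraries of a cell type as independent. All SDs and ranges given here are of counts that the authors had adjusted for batch effects. They do not measure the spread between cultures before that adjustment. The 906 ESC calls over all genes became 5 under the replicate block. Ncoa1 in ESCs shows the opposite deviations, since library 2 was the highest vehicle library and the lowest exposed one.

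In ESCs with the vehicle, Kat7 had the highest level per exonic length of the 10 genes, at 60.5 ± 1.08 CPM per kb of exons (SD, n = 3). Kat2a followed at 51.8 ± 2.10, Kat2b at 28.9 ± 0.895 and Kat6b at 24.9 ± 1.03 CPM per kb. Kat6a had 13.7 ± 0.340, Ep300 11.7 ± 0.514, Kat8 10.04 ± 0.377 and Kat5 8.74 ± 0.337 CPM per kb. Crebbp at 5.12 ± 0.344 and Ncoa1 at 3.58 ± 0.252 CPM per kb were the lowest. No neighbours in this order overlapped in their 3 libraries. The order rests in part on the length used. Kat6b has a union of exons of 16826 bases and a longest transcript of 7699 bases, and per kb of the latter it had 54.4 CPM, which overlapped Kat2a at 55.1. On that scale Kat8 (18.4 CPM per kb) stood above Ep300 (17.5) and Kat6a (13.8) and overlapped Ep300, and Kat5 (13.7) overlapped Kat6a.

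**Figure D1:**
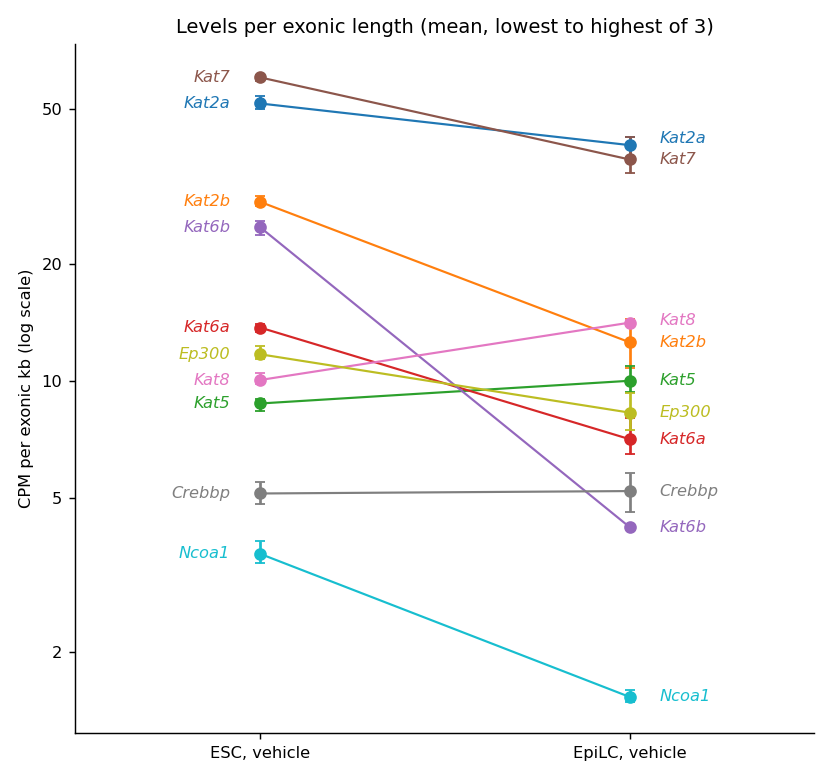
Mean CPM per kb of exons of each gene in the 3 vehicle libraries of ESCs (left) and EpiLCs (right), on a log axis, with bars from the lowest to the highest library. Lines join the same gene; Kat6b went from 24.9 in ESCs to 4.20 in EpiLCs, while Crebbp stayed at 5.12 and 5.20.

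In EpiLCs with the vehicle, the order of the genes was different. Kat2a (40.4 ± 2.46 CPM per kb) and Kat7 (37.1 ± 4.50) were again highest, and their libraries overlapped. Kat8 came next at 14.1 ± 0.241 CPM per kb and overlapped Kat2b at 12.6 ± 1.83, which in turn overlapped Kat5 at 9.996 ± 0.826. Ep300 at 8.28 ± 0.915 overlapped Kat6a at 7.07 ± 0.813 CPM per kb. Crebbp had 5.20 ± 0.600, Kat6b 4.20 ± 0.0764 and Ncoa1 1.53 ± 0.0546 CPM per kb, without overlap of neighbours. Kat6b thus ranked 4 of 10 in ESCs and 9 of 10 in EpiLCs. With the length of the longest transcript, Kat7 (57.8 CPM per kb) stood above Kat2a (43.0) and Kat8 (25.8) above the next gene, Kat5 (15.6), each without overlap. Kat6b had 9.17 CPM per kb on that scale and stood above Kat6a and Crebbp.

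The tables of the ESCs and the EpiLCs were adjusted separately by the authors, so levels were set side by side across the cell types without a test. In bulk RNA, a difference in the cells present and a difference in RNA per cell cannot be told apart. Of the 10 genes, 7 were lower in vehicle EpiLCs than in vehicle ESCs without overlap of the 3 libraries, 2 were higher and Crebbp overlapped. Over the 12410 genes in both tables, 38.4% were lower and 37.1% higher without overlap. Summed over the 10 genes, the vehicle libraries had 1507 to 1542 CPM in ESCs and 786 to 881 in EpiLCs. Much of this difference was that of Kat6b, with means of 418 and 70.6 CPM, and of Kat7, with 335 and 206. The means of Kat5, Kat8 and Crebbp were not lower in EpiLCs.

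Kat6b, the MYST enzyme of the MORF complex, had the largest difference between the cell types. The gene (ENSMUSG00000021767) lies on the plus strand at chr14:21481434-21672478 of GRCm38. It was at 420.5, 434.6 and 400.2 CPM in the vehicle ESC libraries and at 69.6, 72.1 and 70.2 CPM in the vehicle EpiLC libraries. This was a difference of -2.57 on the log2 scale, or 5.93-fold, and 1.63% of genes had a difference this low or lower. Kat6a, its paralog, was 1.94-fold lower (log2 difference -0.96), from 122.3 to 128.4 CPM in ESCs to 59.3 to 73.4 in EpiLCs. The ratio of Kat6a to Kat6b per exonic kb was therefore 0.552 in vehicle ESCs and 1.68 in vehicle EpiLCs. Which of the pair was higher in EpiLCs rests on the length used, since per kb of the longest transcript Kat6a had 7.12 CPM and Kat6b 9.17.

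Ncoa1 was at 29.8, 33.2 and 29.2 CPM in vehicle ESCs and at 12.98, 12.79 and 13.68 CPM in vehicle EpiLCs, a 2.34-fold lower level. Kat2b was at 136.8, 145.4 and 139.7 CPM in vehicle ESCs and at 60.5, 70.4 and 52.6 CPM in vehicle EpiLCs, which was 2.30-fold lower. Its paralog Kat2a was 1.28-fold lower, from 174.5 to 188.4 CPM in ESCs to 131.1 to 147.4 in EpiLCs. The ratio of Kat2a to Kat2b per exonic kb was 1.79 in vehicle ESCs and 3.24 in vehicle EpiLCs. Kat2a, the GNAT enzyme needed for mouse development, was thus the higher of the pair in all 12 libraries.

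Kat7, the catalytic subunit of the HBO1 complexes, was 1.63-fold lower in vehicle EpiLCs (log2 difference -0.70), and Ep300 was 1.41-fold lower (-0.50). Kat8, which acetylates histone H4, was the member with the clearest higher level, at 28.4, 28.4 and 30.3 CPM in vehicle ESCs and 40.9, 41.5 and 40.1 in vehicle EpiLCs (log2 difference 0.49). Kat5 was higher by 0.19 on the log2 scale without overlap with the vehicle, and overlapped with Δ9-THC. Crebbp was at 65.2 to 74.4 CPM in vehicle ESCs and 62.3 to 78.5 in vehicle EpiLCs, a log2 difference of 0.02. In the exposed libraries, 7 genes were lower in EpiLCs, Kat8 was higher, and Kat5 and Crebbp overlapped. There, over all genes, 38.7% were lower and 35.7% higher, and Kat6b differed by -2.36 on the log2 scale.

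**Figure D2:**
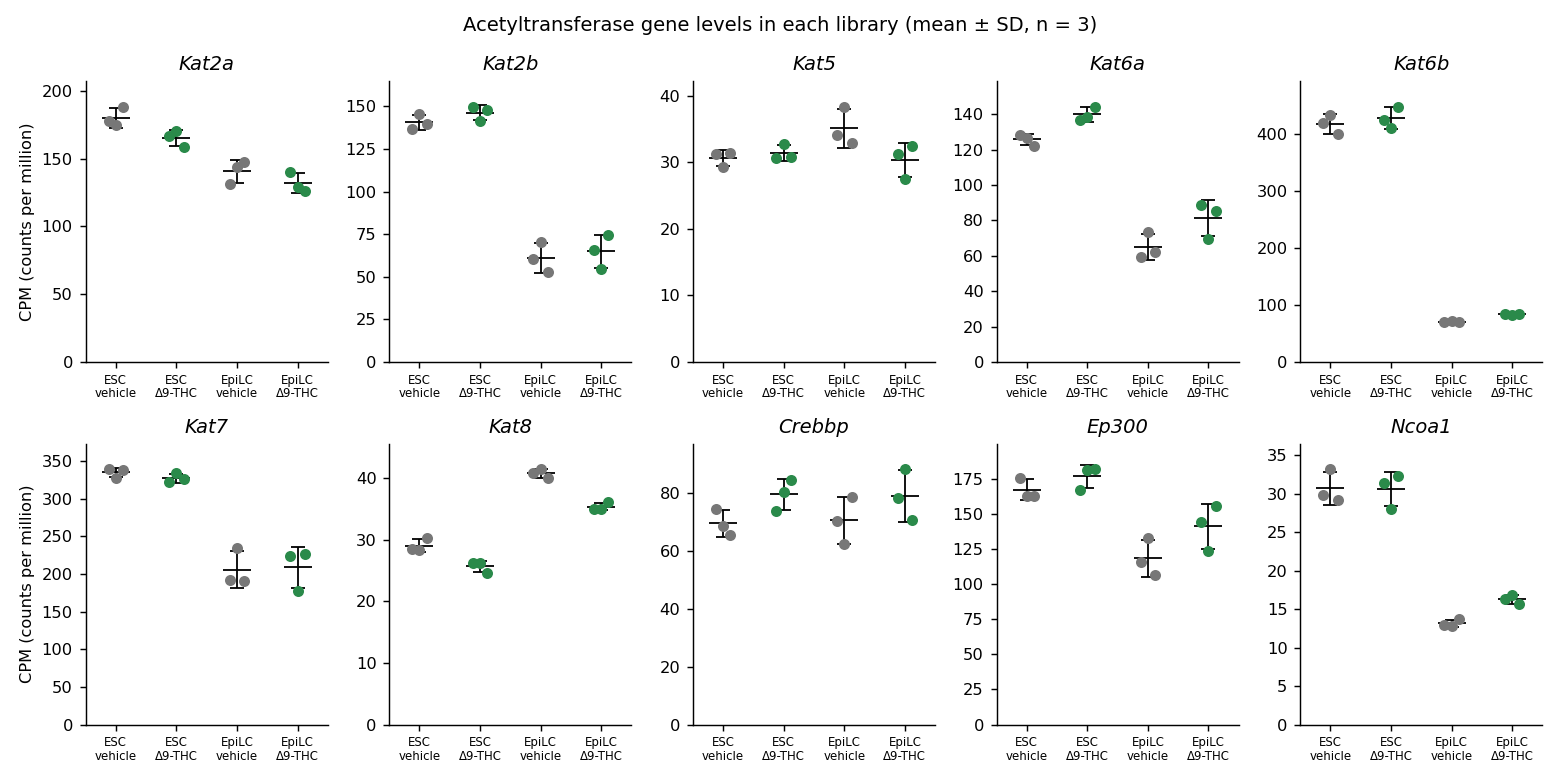
CPM of the 10 genes in each library, with the mean and SD of the 3 libraries of each group (grey, vehicle; green, Δ9-THC); each axis starts at 0. Kat6b stood at 400.2 to 448.6 CPM in ESCs and 69.6 to 84.0 in EpiLCs. Kat8 was lower with Δ9-THC in both cell types without overlap, and passed the test in neither.

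In ESCs, exposure to Δ9-THC was compared with the vehicle to ask whether the drug changed the RNA of these enzymes. Kat6a alone among the 10 genes passed the test, with a higher level in exposed cells. The gene (ENSMUSG00000031540) lies on the plus strand at chr8:22859535-22943259 of GRCm38. It had 128.4, 126.9 and 122.3 CPM in vehicle libraries and 136.7, 138.7 and 144.4 CPM in exposed ones. All 3 exposed libraries lay above all 3 vehicle libraries. Kat6a rose 1.11-fold, a log2 fold change of 0.15 (SE 0.0332; edgeR quasi-likelihood test, Benjamini-Hochberg adjusted p = 0.0477). This call was just inside the threshold, and it was lost with the replicate number as a block (adjusted p = 0.431), with RLE normalization (0.0502), with DESeq2 (0.0537), with offsets for GC content and length (0.0899), in the fit of all 12 libraries (0.497) and without any 1 of the 6 libraries (0.0751 to 0.146), each adjusted by Benjamini-Hochberg. The log2 fold change itself stayed between 0.13 and 0.17 in all 14 alternatives.

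The call of 1 gene in 10 stood beside 6.91% of all 13104 genes called in ESCs, 3.37% called higher and 3.55% lower. An unadjusted p under 0.05 was found for 4 of the 10 genes (Kat2a, Kat6a, Kat8 and Crebbp) and for 28.7% of all genes. The libraries of 3 of the 10 did not overlap between exposures (Kat6a higher, Kat2a and Kat8 lower), and neither did those of 32.6% of all genes, 16.7% higher and 15.9% lower. The median log2 fold change of the 10 genes was 0.03, and of all genes 0.0041.

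Kat8 (ENSMUSG00000030801, chr7:127912516-127925837 of GRCm38, plus strand) was the other MYST gene whose ESC libraries were separate. It shares 4.22% of its exonic bases with the antisense gene Prss8. It had 28.4, 28.4 and 30.3 CPM in vehicle libraries and 26.2, 26.3 and 24.7 CPM in exposed ones, with a log2 fold change of -0.17 (SE 0.0462; Benjamini-Hochberg adjusted p = 0.0666 in edgeR). With the replicate block the edgeR adjusted p was 0.504. Kat2a had 177.7, 174.5 and 188.4 CPM in vehicle libraries and 166.9, 170.3 and 158.3 CPM in exposed ones (log2 fold change -0.12, SE 0.0419, adjusted p = 0.112 in edgeR). The difference of Kat2a was -0.01 with offsets for GC content and length. Its exons are 57.3% G or C, the highest share of the 10 genes, against a median of 49.3% over the genes of the ESC table. Whether GC content or length moved the difference was not tested.

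Crebbp had the largest log2 fold change in ESCs, 0.19 (SE 0.0670; edgeR adjusted p = 0.120). Its vehicle libraries were at 74.4, 68.5 and 65.2 CPM and its exposed libraries at 73.5, 80.3 and 84.3 CPM, so that exposed library 1 fell within the vehicle range. Ep300 differed by 0.08, with vehicle libraries at 175.5, 162.7 and 162.7 CPM and exposed libraries at 167.1, 180.9 and 181.6. The ratio of Crebbp to Ep300 per exonic kb was 0.438 in vehicle and 0.474 in exposed libraries, and its libraries were separate (exact permutation, two-sided p = 0.1, which no comparison of 3 with 3 libraries can go below). The ratio of Kat6a to Kat6b was 0.552 and 0.599, also separate with an exact permutation p = 0.1, and that of Kat2a to Kat2b was 1.79 and 1.58 with overlap (exact permutation p = 0.2). Adjusted over the 6 ratio tests, the lowest p was 0.3 (Benjamini-Hochberg over exact permutation tests).

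The other 5 genes overlapped between exposures in ESCs as well. Kat6b was at 400.2 to 434.6 CPM in vehicle libraries and 411.5 to 448.6 in exposed ones (log2 fold change 0.03). Kat7 was at 328 to 339 and 322 to 334 CPM (-0.03), and Kat2b at 136.8 to 145.4 and 141.3 to 149.9 CPM (0.06). Kat5 was at 29.3 to 31.4 and 30.7 to 32.8 CPM (0.03), and its difference was 0.13 with offsets for GC content and length. Kat5 shares 12.1% of its exonic bases with the antisense gene Rnaseh2c, and the counting ignored strand, so its values are less certain than those of the others. Ncoa1 was at 29.2 to 33.2 and 28.1 to 32.3 CPM, with a log2 fold change of -0.0068 (SE 0.0729).

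**Figure D3:**
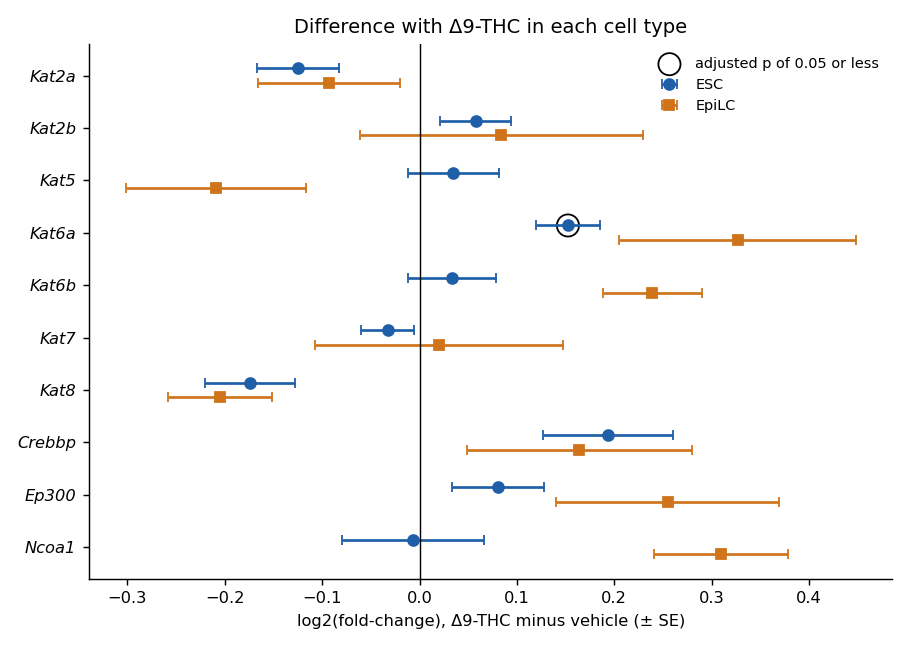
log2 fold change with Δ9-THC against the vehicle for the 10 genes in ESCs (circles) and EpiLCs (squares), with the standard error from edgeR; the ring marks the only adjusted p of at most 0.05. Kat6a stood at 0.15 in ESCs and 0.33 in EpiLCs, and Kat8 at -0.17 and -0.21.

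In EpiLCs, no acetyltransferase gene passed the test with edgeR, and neither did any of the 13717 genes (0.0% called). DESeq2 called none of the 10 either, and 87 genes of the table. An unadjusted p under 0.05 was found for 4 of the 10 genes (Kat6a, Kat6b, Kat8 and Ncoa1) and for 15.1% of all genes. The libraries of 4 of the 10 did not overlap, Kat6b and Ncoa1 higher and Kat5 and Kat8 lower with Δ9-THC, and neither did those of 21.8% of all genes, 11.2% higher and 10.6% lower. The median log2 fold change was 0.12 for the 10 genes and 0.0030 for all genes.

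Kat6b had 69.6, 72.1 and 70.2 CPM in vehicle libraries and 84.0, 82.1 and 84.0 CPM in exposed ones. The difference was 1.18-fold, a log2 fold change of 0.24 (SE 0.0509; Benjamini-Hochberg adjusted p = 0.166 in edgeR). The gap between the groups was wide against the spread within them, but that spread is of adjusted counts and does not measure variation between cultures. With offsets for GC content and length the difference was 0.06. Kat6b has the lowest GC share of the 10 genes, at 44.7%, and the longest union of exons, at 16826 bases. The offsets take GC content and length together, and the part of each was not tested. In the fit of all 12 libraries, whose spread is estimated over both cell types, the adjusted p was 0.0368. With the replicate block the edgeR adjusted p was 0.999, and without 1 library it was 0.339 to 0.452.

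Ncoa1 (ENSMUSG00000020647, chr12:4247362-4477182 of GRCm38, minus strand) had 12.98, 12.79 and 13.68 CPM in vehicle libraries and 16.3, 16.8 and 15.7 CPM in exposed ones. All exposed libraries were above all vehicle libraries, by 1.24-fold (log2 fold change 0.31, SE 0.0687, edgeR adjusted p = 0.172). It was 0.22 with the GC and length offsets. The edgeR adjusted p was 0.0499 in the fit of all 12 libraries, 0.999 with the replicate block and 0.339 to 0.452 without 1 library. Ncoa1 was the 1 member with an unadjusted p under 0.01 and a log2 fold change over 0.25 in size, a rule that 3.97% of the genes of the EpiLC table met. In ESCs none of the 10 genes met it, beside 4.94% of all genes.

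Kat8 was again lower, with 40.9, 41.5 and 40.1 CPM in vehicle libraries and 35.1, 35.0 and 36.1 CPM in exposed ones. Its log2 fold change was -0.21 (SE 0.0534; edgeR adjusted p = 0.202), close to the -0.17 of ESCs, and between -0.22 and -0.18 in all 14 alternatives. With the replicate block the edgeR adjusted p of Kat8 was 0.999. Kat5 had 34.04, 38.34 and 32.84 CPM in vehicle libraries and 31.2, 27.5 and 32.4 CPM in exposed ones, a log2 fold change of -0.21 (SE 0.0925; edgeR adjusted p = 0.350). The Kat5 groups were separate by a narrow margin.

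Kat6a had the largest log2 fold change in EpiLCs, 0.33, with a wide error (SE 0.122; edgeR adjusted p = 0.289). Its vehicle libraries were at 59.3, 73.4 and 62.0 CPM and its exposed libraries at 88.9, 69.7 and 85.6. Exposed library 2 lay within the vehicle range, whose top was vehicle library 2. Ep300 differed by 0.26 (SE 0.115), from 115.3, 132.4 and 106.7 CPM to 144.4, 123.4 and 155.2, and Crebbp by 0.16, from 70.3, 62.3 and 78.5 to 78.1, 88.0 and 70.4 CPM. With the GC and length offsets these differences were 0.11 and 0.06. The Crebbp difference was 0.06 without exposed library 2, 0.08 without vehicle library 2 and 0.25 without vehicle library 3. Kat2a (-0.09), Kat2b (0.08) and Kat7 (0.02) overlapped between exposures.

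**Figure D4:**
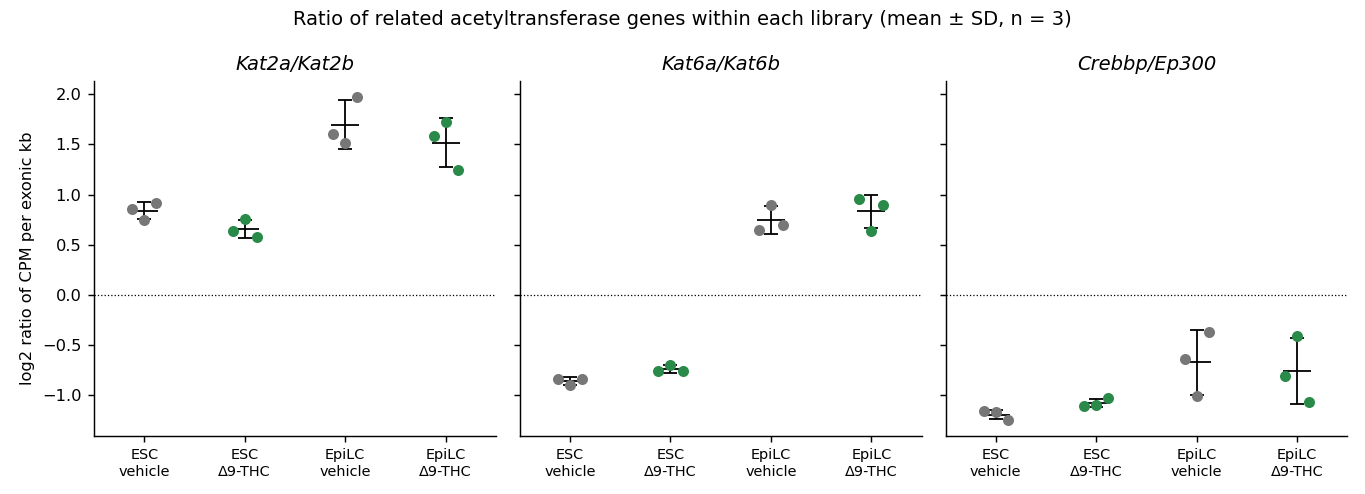
log2 ratio of CPM per exonic kb for Kat2a to Kat2b, Kat6a to Kat6b and Crebbp to Ep300 in each library, with the mean and SD of 3 libraries; the dotted line marks equal levels. The Kat6a to Kat6b ratio was 0.535 to 0.618 in the ESC libraries and 1.56 to 1.94 in the EpiLC libraries; per kb of the longest transcript, Kat6b was the higher in both cell types.

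The ratios of related genes in EpiLCs overlapped between exposures. They were 3.24 and 2.87 for Kat2a to Kat2b (two-sided exact permutation p = 0.5), 1.68 and 1.78 for Kat6a to Kat6b (exact permutation p = 0.7) and 0.628 and 0.590 for Crebbp to Ep300 (exact permutation p = 0.7).

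Whether the difference with Δ9-THC was unlike in the 2 cell types was asked with an interaction term over the 12 libraries. Exposed EpiLCs came from exposed ESCs, so cell type and the length of exposure cannot be told apart here. None of the 10 genes passed with edgeR or DESeq2, beside 0.0322% of the 12410 genes in edgeR and 133 genes in DESeq2. An unadjusted edgeR p under 0.05 was found for Kat6b and Ncoa1 and for 13.7% of all genes. The difference was larger in EpiLCs by 0.22 for Kat6b (SE 0.0734; edgeR adjusted p = 0.214) and by 0.33 for Ncoa1 (SE 0.105; edgeR adjusted p = 0.194), and lower by 0.23 for Kat5 (-0.23, SE 0.109, edgeR adjusted p = 0.378). With the GC and length offsets it was 0.08 for Kat6b and 0.23 for Ncoa1, and with the replicate block the edgeR adjusted p of both was 0.999. For Kat8 it was -0.01 (SE 0.0753). The sign was the same in both cell types for 7 of the 10 genes and for 58.9% of the 12410 genes. Kat5, Kat7 and Ncoa1 had opposite signs.

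The complexes that hold these enzymes were described by 8 lists of 97 partner genes. In ESCs, 95 were tested, 4 rose and 3 fell by edgeR with Benjamini-Hochberg adjustment, and 88 did not pass. This was 7 of 95, beside the 6.91% called over all genes, and the median log2 fold change of the partners was 0.03. All 7 calls were lost with the replicate block, with the GC and length offsets and without any 1 library, and DESeq2 called 8 partners in ESCs. In EpiLCs, 94 were tested and none was called by edgeR, 19 had an unadjusted p under 0.05 (15.1% of all genes had), and DESeq2 called 2 (Ep400 and Brwd1). Over all genes, DESeq2 called 759 of 13104 in ESCs and 87 of 13717 in EpiLCs. Ing4 and Cited4 were in neither table and Tada1 was not in the EpiLC table.

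Among the scaffold subunits of the MOZ, MORF and HBO1 complexes, which carry Kat6a, Kat6b and Kat7, Jade3 rose in ESCs and the other 7 of 8 tested did not pass. The Jade3 call was lost with the replicate block, and 3.37% of all genes were called higher in ESCs. Jade3, which steers HBO1, had 128 ± 3.69 CPM in vehicle libraries and 151 ± 4.61 in exposed ones (n = 3; log2 fold change 0.24, SE 0.0352, edgeR adjusted p = 0.0301). The log2 fold changes of the 8 genes ran from 0.0065 to 0.24 in ESCs and from -0.13 to 0.24 in EpiLCs. In EpiLCs Jade1 had the smallest p of the list, at 201 ± 3.28 and 237 ± 3.82 CPM (log2 fold change 0.24, edgeR adjusted p = 0.172).

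Of 15 TIP60 complex subunits, 2 rose in ESCs and none fell. Beside this, 3.37% of all genes were called higher and 3.55% lower, and the 2 calls were lost with the replicate block. Epc2, which holds Kat5 in the catalytic module, had 44.5 ± 0.518 and 50.1 ± 0.755 CPM (log2 fold change 0.17, edgeR adjusted p = 0.0337). Morf4l2, an MRG-domain subunit, had 565 ± 3.13 and 608 ± 5.35 CPM (0.11, edgeR adjusted p = 0.0479). In EpiLCs, Ep400, the ATPase of the complex, had 124 ± 4.52 and 154 ± 6.47 CPM without overlap (log2 fold change 0.32, edgeR adjusted p = 0.151), while in ESCs it differed by -0.0041.

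No SAGA or ATAC subunit of 19 passed in ESCs with edgeR and none of 18 in EpiLCs, and DESeq2 called Dr1 in ESCs and none in EpiLCs. An unadjusted p under 0.05 was found for 6 of these 19 and 4 of these 18 genes, beside 28.7% of all genes in ESCs and 15.1% in EpiLCs, shares that also stand beside the counts of the next lists. The smallest p was for Mbip, an ATAC subunit, in ESCs (log2 fold change 0.22, edgeR adjusted p = 0.0649) and for Taf6l, of the SAGA core, in EpiLCs (-0.27, edgeR adjusted p = 0.204). No MSL or NSL subunit of 11 passed in either cell type with edgeR or DESeq2, with 2 in ESCs and 1 in EpiLCs at an unadjusted p under 0.05 in edgeR. Msl2, a subunit of the MSL complex of Kat8, had the smallest p in ESCs (0.13, edgeR adjusted p = 0.0516), and Kansl1, the NSL scaffold, in EpiLCs (0.19, edgeR adjusted p = 0.328). None of the 10 tested CBP and p300 partners passed with edgeR or DESeq2, with 2 at an unadjusted p under 0.05 in edgeR in each cell type. Cited1, with 3.74 ± 0.374 CPM in vehicle ESCs, differed by 0.35 there (edgeR adjusted p = 0.0864). Cited2, which binds CBP and p300 and limits HIF activity, had 15.6 ± 0.853 and 11.8 ± 0.625 CPM in EpiLCs (-0.41, edgeR adjusted p = 0.151).

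**Figure D5:**
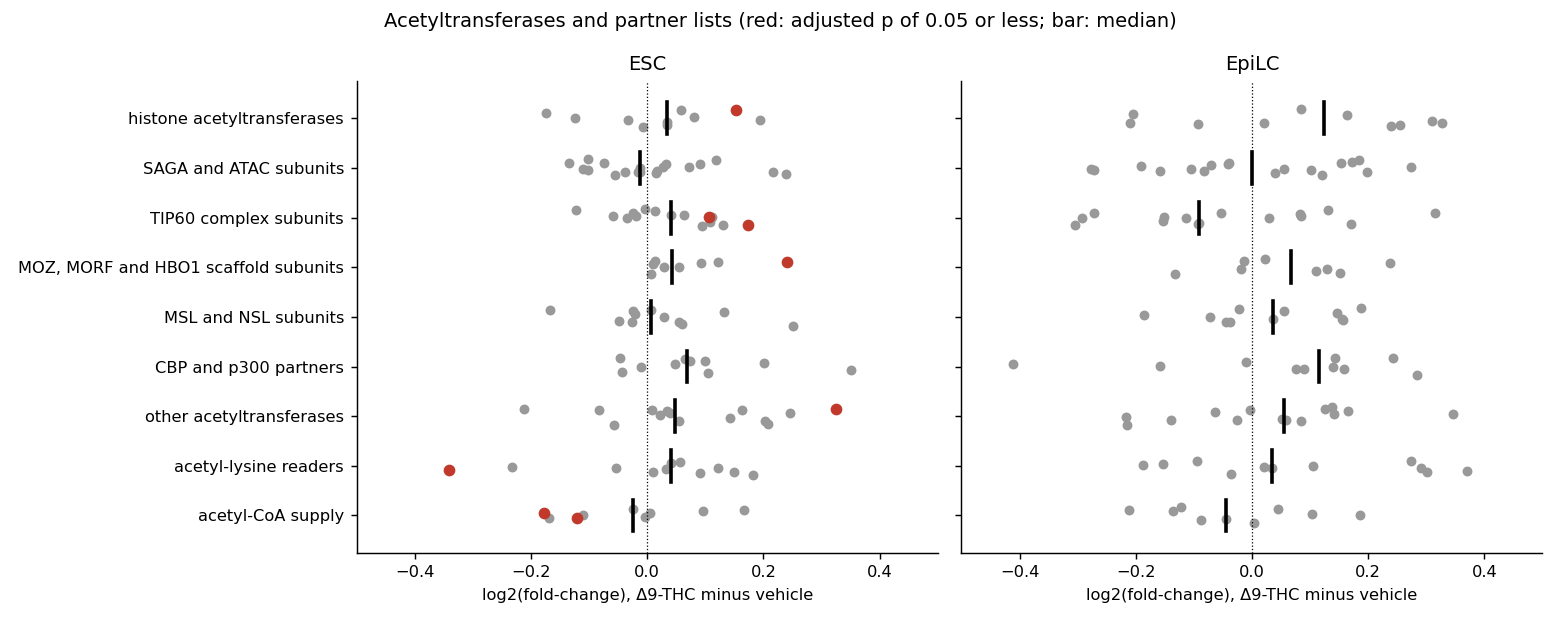
log2 fold change with Δ9-THC for each gene of the acetyltransferases and the 8 partner lists in ESCs (left) and EpiLCs (right); red points have an adjusted p of at most 0.05 in edgeR and bars mark list medians. Red points are present in ESCs (8 in all with Kat6a) and absent in EpiLCs.

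Other acetyltransferases were represented by 14 genes, of which Naa50 rose in ESCs and 13 did not pass. Naa50, which acetylates the N termini of proteins, had 407 ± 26.4 and 511 ± 33.8 CPM (log2 fold change 0.33, SE 0.0640, edgeR adjusted p = 0.0399). In EpiLCs Clock, a circadian transcription factor, had the smallest p (0.35, edgeR adjusted p = 0.172). Among 11 acetyl-lysine readers, Mllt1 fell in ESCs and 10 did not pass. The calls of Naa50 and Mllt1 were lost with the replicate block. Over all genes in ESCs, 3.37% were called higher and 3.55% lower. Mllt1 (ENL), a YEATS-domain reader of the elongation machinery, had 35.3 ± 0.379 CPM in vehicle libraries and 27.9 ± 0.425 in exposed ones (log2 fold change -0.34, SE 0.0328, edgeR adjusted p = 0.0265). In EpiLCs its groups were also separate (-0.19, edgeR adjusted p = 0.285), and the bromodomain gene Brwd1 had the smallest p (0.30, edgeR adjusted p = 0.144).

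Of 9 genes for acetyl-CoA supply, 2 fell in ESCs, none rose and 7 did not pass. Over all genes in ESCs, 3.55% were called lower and 3.37% higher, and these 2 calls were lost with the replicate block. Acly, which makes acetyl-CoA from citrate, had 967 ± 14.3 and 889 ± 10.6 CPM (log2 fold change -0.12, edgeR adjusted p = 0.0475). Acss2, which makes it from acetate, had 19.4 ± 0.0462 and 17.1 ± 0.0625 CPM (-0.18, edgeR adjusted p = 0.0424). These very small SDs are of adjusted counts and are not a measure of how well cultures agreed. In EpiLCs these genes differed by 0.04 and 0.10 with overlap, and Pdhb, of the pyruvate dehydrogenase complex, had the smallest p (-0.21, edgeR adjusted p = 0.276).

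Markers of cell state are given beside these differences, because several members, Kat6b most of all, differed between ESCs and EpiLCs. In EpiLCs all 8 naive markers had a positive log2 fold change, as had 6953 of all 13717 genes, none of them called by edgeR and 2 with an unadjusted p under 0.05. DESeq2 called none of the 6 to which it gave an adjusted p and gave none to Prdm14 and Tbx3. The 8 markers summed to 309 to 338 CPM in vehicle libraries and 333 to 365 in exposed ones. The formative markers summed to 1741 to 2072 and 1775 to 2107 CPM. In ESCs, 6 of 8 naive markers were negative, as were 6407 of all 13104 genes, edgeR called none with 3 at an unadjusted p under 0.05, DESeq2 called Klf2, and the list summed to 4347 to 4650 CPM in vehicle libraries and 4286 to 4574 in exposed ones. Of the 6 formative markers tested in ESCs, 3 were positive and 3 negative, with a median log2 fold change of -0.015 and a highest of 0.22. The list summed to 159 to 172 CPM in vehicle libraries and 154 to 166 in exposed ones. Pou3f1 (log2 fold change -0.96, edgeR adjusted p = 0.0265) and Sox3 (-0.40, edgeR adjusted p = 0.0498) fell, from low vehicle means of 3.83 and 3.99 CPM. Both calls were lost with the replicate block, with the GC and length offsets and without any 1 library, and DESeq2 gave neither gene an adjusted p. Of the 5 markers of cells like those of the early cleavage embryo, Zscan4c (0.45, edgeR adjusted p = 0.0738) and Zscan4d (0.46, edgeR adjusted p = 0.311) were tested in ESCs, and together they summed to 2.07 to 2.736 CPM in vehicle libraries and 2.743 to 3.48 in exposed ones. In EpiLCs, 3 of these Zscan4 markers were tested and edgeR called none. They summed there to 6.85 to 8.31 CPM in vehicle libraries and 6.70 to 8.42 in exposed ones. The part of these markers of cell state in the differences of the acetyltransferase genes was not tested.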

How the data were processed

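RNA was measured in poly(A) libraries of ESCs and EpiLCs, prepared with either of a pair of kits; the labels name no kit for a library. The authors aligned reads with STAR, counted unique reads per gene with HTSeq without strand, removed genes with low counts and adjusted the counts with ComBat-seq. The deposited values are whole-number adjusted counts, with a table for each cell type. The batches given to ComBat-seq and the kit of each library are not given in the sources used here, and the methods name the genome as mm10 and as GRCm39. Libraries of PGCLCs were not analysed here. Fold-changes and p-values of the authors' own comparisons were not used.

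Each of the 12 columns was mapped by its label, with 0 left over. Exposures were compared within a cell type by edgeR 4.0.16 (quasi-likelihood, TMM, genes with a total over 10 counts, Benjamini-Hochberg adjustment over all genes, threshold 0.05) in R 4.3.3. The interaction used 12 libraries and 12410 genes. Levels per kb used the union of exons of GENCODE M21 (GRCm38). Exposure differences of ratios were tested by two-sided exact permutation. P-values measure the spread between these libraries after adjustment. DESeq2 1.42.0, RLE normalization, other filters, the replicate block, natural-spline offsets for GC content and length (5 degrees of freedom), a fit of 12 libraries, and leaving out each library were tried. Python 3.11.15, pandas 2.3.3, scipy 1.17.1 and matplotlib 3.10.9 were used.

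The members and partner lists were chosen with earlier results of these data known. All members were named, with the partner gene of smallest p per list and cell type and every called partner. Dr1, the genes called by DESeq2 alone and single markers were named after their values were seen.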

Additional observations from a re-analysis of the deposited data

How the results depend on the processing

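The 1 acetyltransferase gene called in ESCs (Kat6a) fell to 0 with RLE normalization, DESeq2, the replicate block, the GC and length offsets, both together, the fit of all 12 libraries and the rule of an unadjusted p under 0.01 with a log2(fold-change) over 0.25, and to 0 without each library in turn (range 0 to 0). The count of 7 partner genes called in ESCs was 0 with the replicate block, with the offsets, with both and without each library (0 to 0), 1 in the fit of all 12 libraries and 2 under the rule of p and size. In EpiLCs the 0 acetyltransferase calls became 2 in the fit of all 12 libraries (Kat6b and Ncoa1) and 1 under the rule of p and size, and the 0 partner calls became 2 with DESeq2, 7 in the fit of 12 libraries and 7 under that rule. Beside these counts, the fit of 12 libraries called 411 of all 12410 genes in EpiLCs, and DESeq2 called 87 of 13717. The rule of p and size was met by 3.97% of all genes in EpiLCs and 4.94% in ESCs. The interaction count was 0 in every alternative run.

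Over all genes, the 906 calls in ESCs were 878 with RLE, 759 with DESeq2, 5 with the replicate block, 2 with the offsets, 3 with both, 31 in the fit of 12 libraries and 0 to 1 without a library. In EpiLCs 0 calls became 87 with DESeq2 and 411 in the fit of 12 libraries, and in the interaction 4 became 133 with DESeq2 and 0 with the replicate block, with the offsets, with both and without any 1 of the 12 libraries. The cause of these changes was not tested. Same-numbered libraries correlated at -0.987 to -0.976 in their deviations, below the 0.1 set for a pairing. That rule asks for a positive correlation, so on adjusted counts it cannot decide whether the numbers pair the libraries. No conclusion is drawn from it. Other vehicle and exposed libraries correlated at 0.22 to 0.70. The libraries are therefore not independent, and the edgeR p-values, which assume that they are, should be read beside those of the block.

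Signs turned for small differences, none of them called. With the GC and length offsets, alone and with the block, Kat6b in ESCs became -0.013 in both, Kat7 in EpiLCs -0.021 (-0.0205 alone), and the interactions of Kat2a -0.00028 and -7.36e-05 and of Kat8 0.0016 and 0.0023. Without a library, the range was -0.0011 to 0.063 for Kat6b and -0.048 to 0.055 for Ncoa1 in ESCs, and -0.028 to 0.20 for Kat2b and -0.045 to 0.12 for Kat7 in EpiLCs. For the interactions it was -0.00097 to 0.086 for Kat2a, -0.061 to 0.15 for Kat2b, -0.046 to 0.0039 for Kat8 and -0.10 to 0.068 for Crebbp. Without a change of sign, leaving out a library moved the difference by over 1.5 times for Kat5 (0.0015 to 0.052) and Kat7 (-0.047 to -0.021) in ESCs and for Crebbp (0.065 to 0.25) and Kat2a (-0.15 to -0.056) in EpiLCs. Crebbp in exposed EpiLCs minus ESCs (-0.010) became 0.0089 with a joint TMM over 12 libraries, a scaling added after the data were seen. The lowest count of an acetyltransferase gene in any library was 309.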
